A study of Mus musculus with 15 samples.

Results

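The 38 genes described here are interferon-stimulated genes, chosen by symbol from a list of interferon response genes and not by a threshold on their values: 24 antiviral genes of the type I response, 4 transcription factors that carry the interferon signal (Irf1, Irf7, Irf9 and Stat2) and 10 GTPases known for their induction by interferon gamma (Gbp2, Gbp3, Gbp4, Gbp5, Gbp6, Gbp7, Gbp9, Igtp, Irgm1 and Irgm2). The list was drawn up with earlier results of these data known. Counts of calls among the 38 genes are therefore a description and not an independent test. These genes are 38 of the 55416 genes in the deposited tables, and 37 passed the filter on low counts that left 14372 genes for testing. Zbp1, a sensor of Z-form nucleic acid, did not pass, with 0 to 11 counts in a library.

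The samples were tibialis anterior, a leg muscle, from male mice of strain C57BL/6 (C57BL/6NCrlOri) aged 6 to 8 weeks, in a series that compared muscle of tumour-bearing mice under different antibodies. In 3 groups the mice carried KrasIKKaL cells, a tumour line given into the trachea. The anti-PD-L1 group (n = 3) received clone 10F.9G2, an antibody against a checkpoint ligand, at 200 µg per kg. The anti-CD8a group (n = 3) received clone 2.43, an antibody against a coreceptor of cytotoxic T cells, at 200 µg. Both were injected into the peritoneum 3 times a week. The IgG group (n = 4) received an isotype antibody, rat IgG2b clone LTF-2, whose dose the labels do not state. The control group (n = 5) had no tumour and no antibody is named for it, so tumour and injected antibody cannot be told apart in any comparison with control. The tumour line is a single line, and whether the libraries of a group are separate mice is not stated, so p-values measure only their spread, which may be technical.

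Interferons signal through paired receptors and the kinases Jak1, Jak2 and Tyk2. Type I interferons activate a complex that holds Stat2 and Irf9 and binds the interferon-stimulated response element (ISRE) of antiviral genes. Interferon gamma acts through gamma-activated sites (GAS), and Irf1 then helps to drive the guanylate-binding proteins (Gbp) and immunity-related GTPases (Igtp, Irgm), which attack the membranes around intracellular microbes.

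Library totals were 15894822 to 22459370 expected counts, and the 38 genes held 0.0138% to 0.0372% of them. Levels are CPM, read counts scaled to the TMM library size, and a library with no read of a gene allows up to 0.129 to 0.189 CPM (3 counts, counting error only). Muscle fibre markers were high everywhere, at a summed 48200 to 84800 CPM in anti-PD-L1, 76700 to 86900 in anti-CD8a, 58300 to 87700 in IgG and 77000 to 111000 in control. On the first principal component, 56.1% of the variance, IgG replicate 2 (38) and anti-PD-L1 replicate 2 (60.5) stood apart from the rest of their own groups and towards each other's, so results that rest on them are also given without them.

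Promoters of 27 of the 38 genes were found in RefSeq (GRCm38.p6, 250 bases before to 50 after a start), and 6 that held a match are shown to set antiviral genes, a transcription factor and GTPases side by side; they were chosen after the matches were seen and are not the 6 genes of largest change. The ISRE core was searched as GAAA, any 2 bases and GAAA, and the GAS as TTCNNNGAA, on both strands. Of 32817 windows of the same length, 3.43% held the ISRE core and 8.29% the GAS. Among the antiviral genes 9 of 16 with a window held the ISRE core and 5 a GAS, and among the GTPases 7 of 7 held the ISRE core and 4 a GAS. Oasl2, Ifi44, Xaf1, Samd9l and Rnf213 held neither. Of the 4 transcription factors, Stat2 held an ISRE core, Irf1 a GAS, and Irf7 and Irf9 neither. The ISRE and GAS letters overlapped in Bst2 and Ifitm3. A match is a string of letters and not a measured site. Capitals mark the matches in the 6 promoters below, each written 5′ to 3′ on the strand of its gene.
Ifit3b (chr19:34607707-34608006, plus strand): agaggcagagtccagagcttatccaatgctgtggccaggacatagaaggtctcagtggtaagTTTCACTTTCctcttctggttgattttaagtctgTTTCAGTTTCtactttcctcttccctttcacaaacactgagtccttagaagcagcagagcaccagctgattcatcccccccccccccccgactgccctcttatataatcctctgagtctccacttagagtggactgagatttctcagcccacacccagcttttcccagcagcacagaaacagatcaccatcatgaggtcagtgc
Isg15 (chr4:156200769-156201068, minus strand): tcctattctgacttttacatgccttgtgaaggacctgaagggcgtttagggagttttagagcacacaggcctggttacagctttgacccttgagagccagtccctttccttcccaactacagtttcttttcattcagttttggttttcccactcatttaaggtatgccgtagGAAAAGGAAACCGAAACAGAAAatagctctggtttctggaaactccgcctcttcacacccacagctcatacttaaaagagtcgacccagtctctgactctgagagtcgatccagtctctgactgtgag
Irf1 (chr11:53769764-53770063, plus strand): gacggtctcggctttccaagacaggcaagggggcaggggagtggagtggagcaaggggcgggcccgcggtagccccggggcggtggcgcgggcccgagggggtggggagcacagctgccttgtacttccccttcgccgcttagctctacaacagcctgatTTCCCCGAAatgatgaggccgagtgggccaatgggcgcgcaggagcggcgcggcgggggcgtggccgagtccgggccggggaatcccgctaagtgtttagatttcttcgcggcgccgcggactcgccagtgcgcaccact
Gbp7 (chr3:142530086-142530385, plus strand): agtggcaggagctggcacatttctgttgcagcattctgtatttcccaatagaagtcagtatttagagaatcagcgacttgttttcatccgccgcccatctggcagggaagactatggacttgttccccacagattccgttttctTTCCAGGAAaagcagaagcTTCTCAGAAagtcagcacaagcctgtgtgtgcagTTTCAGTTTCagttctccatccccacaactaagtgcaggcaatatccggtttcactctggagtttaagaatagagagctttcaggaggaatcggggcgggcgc
Igtp (chr11:58199306-58199605, plus strand): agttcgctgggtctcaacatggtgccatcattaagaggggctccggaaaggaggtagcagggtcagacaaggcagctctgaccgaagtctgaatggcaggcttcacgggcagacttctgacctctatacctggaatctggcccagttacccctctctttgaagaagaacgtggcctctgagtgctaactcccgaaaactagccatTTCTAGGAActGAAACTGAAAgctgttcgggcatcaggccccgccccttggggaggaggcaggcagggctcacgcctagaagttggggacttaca
Irgm2 (chr11:58214727-58215026, plus strand): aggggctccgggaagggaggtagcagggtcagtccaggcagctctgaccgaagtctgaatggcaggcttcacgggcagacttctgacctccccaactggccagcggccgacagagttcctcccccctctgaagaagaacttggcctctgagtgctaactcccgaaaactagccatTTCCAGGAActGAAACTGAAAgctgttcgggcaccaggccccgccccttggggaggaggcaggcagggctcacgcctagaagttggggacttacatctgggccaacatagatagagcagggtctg
Ifit3b and Isg15, 2 antiviral genes, held ISRE cores and no GAS in these windows. Irf1 held a GAS and no ISRE core. The neighbouring genes Igtp and Irgm2 each held both, with the GAS at -45 and the ISRE core at -34 in Igtp and at -75 and -64 in Irgm2, counted from the start of transcription. Gbp7 held 2 GAS and 1 ISRE core, the ISRE core at -53.

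The ligands were below detection and the receptors were not. Each of the 7 listed interferon genes (Ifng, Ifnb1, Ifna2, Ifna4, Ifnl2, Ifnl3 and Ifne) had 0 counts in all 15 libraries. Of 9 receptor and kinase genes, 8 were tested. In IgG against control 0 of the 8 were higher and 4 were lower, where 28.4% of all tested genes were lower. In anti-PD-L1 against control 0 were higher and 2 lower, where 13.9% of all tested genes were lower, and in anti-CD8a against IgG 3 were higher and 0 lower, where 23.2% of all were higher. On 8 genes the counts of 2 and 3 are near those shares. Ifngr2, the signalling chain of the interferon gamma receptor, had 41.0, 31.3 and 48.2 CPM in anti-PD-L1, 75.9, 71.5 and 72.4 CPM in anti-CD8a, 30.4, 37.9, 38.2 and 14.2 CPM in IgG and 70.7 to 81.9 CPM in control. The IgG and anti-PD-L1 libraries lay below every anti-CD8a and control library. The log2 fold change of Ifngr2 was -1.35 with SE 0.22 (adjusted p = 8.67e-05) in IgG against control and 1.28 with SE 0.24 (adjusted p = 0.000534) in anti-CD8a against IgG (edgeR quasi-likelihood test, Benjamini-Hochberg adjustment over all genes tested, here and throughout). Jak2, the kinase bound to that chain, followed the same order, with log2 fold changes of -1.11 with SE 0.11 (adjusted p = 1.63e-06) in IgG against control, -0.77 with SE 0.12 (adjusted p = 0.000332) in anti-PD-L1 against control and 0.87 with SE 0.12 (adjusted p = 7.19e-05) in anti-CD8a against IgG. Ifngr1, the other chain of that receptor, did not follow this order. Its mean was 45.5 CPM in anti-PD-L1, 31 CPM in IgG and 29.4 CPM in anti-CD8a. For anti-PD-L1 its log2 fold change was 0.553 against IgG (adjusted p = 0.0399) and 0.629 against anti-CD8a (adjusted p = 0.0122). The first call was lost under 9 of 14 alternatives and the second under 5 of 13. Against control Ifngr1 was not called in anti-PD-L1.

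Irf2, a factor that competes with Irf1 for the same DNA element, ran the other way to Ifngr2 and Jak2, at 17.5, 21.4 and 17.4 CPM in anti-PD-L1, 10.1, 10.5 and 13.0 CPM in anti-CD8a, 22.8, 23.5, 26.1 and 27.9 CPM in IgG and 10.8 to 14.4 CPM in control. Every IgG and anti-PD-L1 library of Irf2 lay above every anti-CD8a and control library. Of regulators outside the 38 genes, Stat3, Irf2 and Socs3 were higher in IgG against control, and Ciita and Irf5 were lower, at -2.31 and -1.75 in log2.

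**Figure D1:**
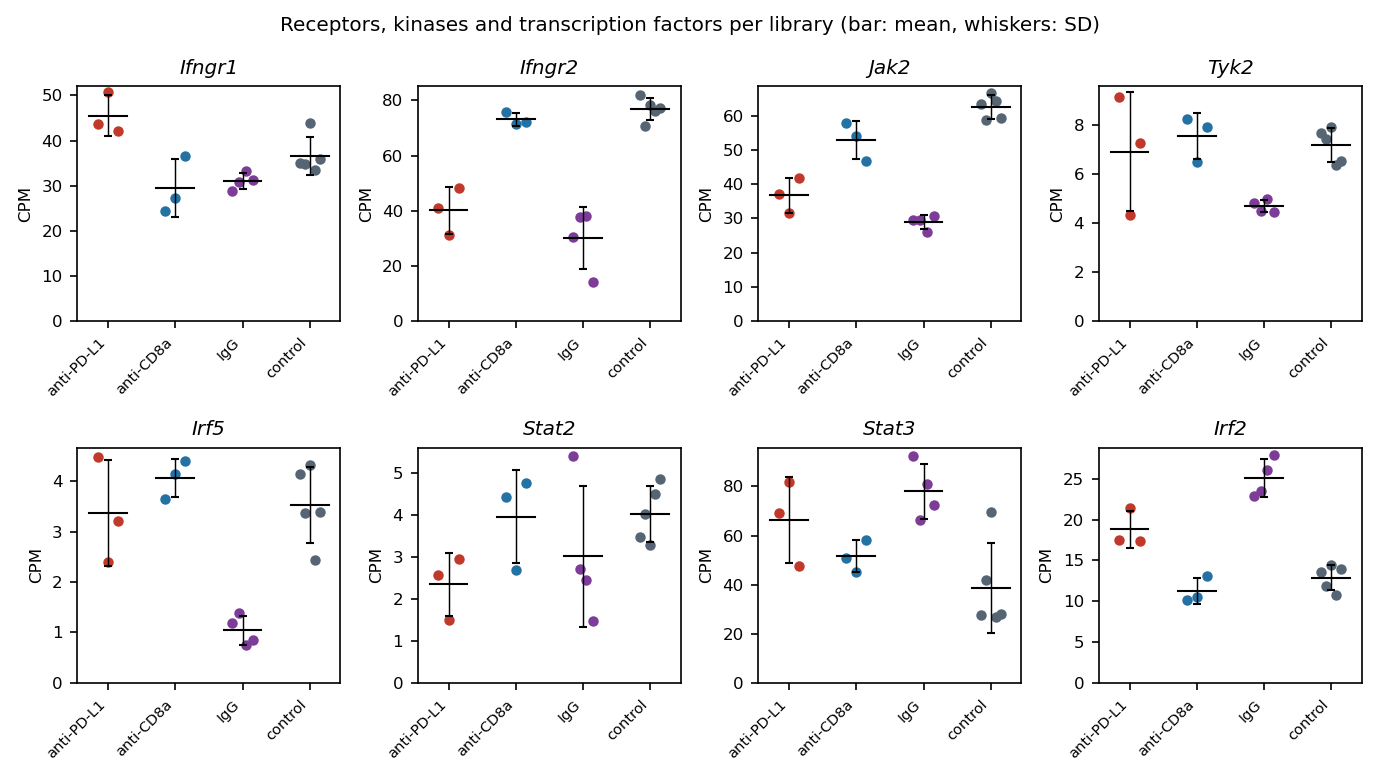
CPM of 8 signalling genes per library in the 4 groups, with the group mean as a bar and the SD as whiskers. Ifngr2 and Jak2 are low in IgG and anti-PD-L1 and high in anti-CD8a and control, and Irf2 is high in IgG and anti-PD-L1.

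The comparison of IgG with control, of tumour-bearing mice under isotype antibody with tumour-free mice, gave the most calls among the 38 genes. Lower levels in IgG were called for 30 of the 37 tested genes, where 28.4% of all tested genes were called lower, and a higher level for 1, Gbp6, where 30.2% of all tested genes were called higher. The median log2 fold change was -1.26 over the 37 genes and -0.02 over all genes tested. The 30 comprised 18 of 23 antiviral genes, 3 of 4 transcription factors and 9 of 10 GTPases. In a bulk muscle sample, fewer cells of a type and less RNA per cell cannot be told apart.

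Among the antiviral genes Ifit3b, of the family that binds foreign RNA ends, had 0.496, 1.08, 0.252 and 0.550 CPM in IgG and 4.04, 5.66, 3.79, 4.60 and 4.37 CPM in control. The highest IgG library was below the lowest control library, and the log2 fold change was -2.90 with SE 0.35 (adjusted p = 7.3e-06), a fold of 0.134. Its neighbour Ifit3 shares 31.7% of its 100-base stretches with Ifit3b, so counts could be divided between them, and it fell with a log2 fold change of -1.90. Oasl2, a relative of the oligoadenylate synthetases, had 0.0621, 0.963, 0.315 and 0.305 CPM in IgG and 2.08, 2.42, 2.19, 2.22 and 2.94 CPM in control, without overlap, and fell with a log2 fold change of -2.50 with SE 0.46 (adjusted p = 0.000263). Oas1a, an oligoadenylate synthetase that activates RNA decay, had 1, 5, 0 and 0 counts in the IgG libraries against 9 to 16 in control. The ratio of its pooled counts was 0.148 (95% counting interval 0.0523 to 0.343), the fitted log2 fold change -2.67 with SE 0.63 (adjusted p = 0.00193), and 40.9% of its 100-base stretches are shared with Oas1g. Isg15, the ubiquitin-like modifier, had 0.745, 0.301, 0.189 and 0.366 CPM in IgG and 1.29, 1.36, 1.44, 1.35 and 1.56 CPM in control and fell with a log2 fold change of -1.79, and Usp18, which removes Isg15 from proteins, fell with a log2 fold change of -1.35. The other called antiviral genes, among them Bst2 (a tether of budding virus), Ifi27, Ifi35, Ifi44, Oas2, Ifih1 (a sensor of double-stranded RNA), Xaf1, Rtp4, Samd9l, Parp9, Parp14 and Rnf213, fell with a log2 fold change of -2.36 to -0.58. The call of Samd9l was lost without control replicate 5, IgG replicate 1 or IgG replicate 3 (-0.86 to -0.77), and that of Rnf213 without control replicate 5 or IgG replicate 2 (-0.46 and -0.51).

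5 tested antiviral genes were not called in IgG against control. Ifitm3, which blocks virus entry at membranes, had 27.7, 35.4, 35.7 and 38.2 CPM in IgG and 32.5, 28.6, 44.4, 36.6 and 38.9 CPM in control, and the ranges overlapped (log2 fold change -0.08, with a 95% interval of -0.46 to 0.30). Ifit2 gave -0.07, with a 95% interval of -0.49 to 0.35 and Dhx58 -0.86, with a 95% interval of -1.93 to 0.21. Rsad2 (viperin, which makes a chain-terminating nucleotide) had 9.43, 4.03, 1.64 and 2.63 CPM in IgG and 4.15, 6.19, 4.71, 4.38 and 5.26 CPM in control, with IgG replicate 1 above and IgG replicates 2 to 4 below every control library. Its log2 fold change was -0.16, with a 95% interval of -1.07 to 0.76. Ifit1 likewise had 4.47, 0.963, 0.693 and 0.855 CPM in IgG, replicate 1 alone lying above the control range of 1.74 to 2.88 CPM. Without IgG replicate 1 the log2 fold change of Ifit1 was -1.46 (adjusted p = 0.000367), against -0.39 with it (adjusted p = 0.452). Stat2 showed the same library high, at 5.40, 2.71, 2.46 and 1.47 CPM in IgG and 3.48, 4.01, 3.28, 4.49 and 4.86 CPM in control, and its log2 fold change of -0.42 (adjusted p = 0.26) became -0.88 without IgG replicate 1 (adjusted p = 0.0165).

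The transcription factors Irf7, Irf1 and Irf9 fell. Irf7, the factor that amplifies type I responses, had 1.49, 1.20, 0.630 and 0.977 CPM in IgG and 3.48, 2.95, 2.24, 2.87 and 2.72 CPM in control, a log2 fold change of -1.40 with SE 0.28 (adjusted p = 0.000495). Irf1 had 2.79, 4.82, 2.58 and 3.30 CPM in IgG and 6.00, 7.84, 6.55, 7.19 and 10.3 CPM in control, and fell with a log2 fold change of -1.17 with SE 0.22 (adjusted p = 0.000278). Irf9 fell with a log2 fold change of -1.01 with SE 0.21 (adjusted p = 0.000867). In all 3 the highest IgG library was below the lowest control library.

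Of the GTPases Gbp7 had the smallest p, at 3.91, 4.94, 3.47 and 3.85 CPM in IgG and 13.6, 16.0, 14.6, 11.6 and 17.9 CPM in control, a log2 fold change of -1.86 with SE 0.18 (adjusted p = 1.28e-06). Gbp3 had 2.85, 1.20, 1.39 and 1.04 CPM in IgG and 4.93, 5.30, 4.43, 4.71 and 7.76 CPM in control and fell with a log2 fold change of -1.74 with SE 0.29 (adjusted p = 0.000116). Gbp2 had 3.17, 2.47, 3.40 and 2.75 CPM in IgG and 5.78, 7.66, 8.39, 8.44 and 14.1 CPM in control and fell with a log2 fold change of -1.59 with SE 0.30 (adjusted p = 0.000309). None of these 3 overlapped between the groups. Igtp (Irgm3) fell with a log2 fold change of -1.39, Irgm2 at -1.07 and Irgm1, which restrains the effector GTPases, at -0.43. Gbp4 and Gbp5 fell with a log2 fold change of -1.59 and -1.28. Gbp9 fell with a log2 fold change of -0.74 with SE 0.30 (adjusted p = 0.0451), a call lost when control replicate 2 or 5, or any 1 of the 4 IgG libraries, was left out (-0.80 to -0.44).

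Gbp6 was the exception in direction. It had 28.7, 41.2, 22.1 and 146 CPM in IgG and 15.5, 38.2, 18.8, 9.90 and 20.6 CPM in control, so replicate 4 held more than the other 3 IgG libraries together, of which replicate 2 lay just above the control range and replicates 1 and 3 within it. The log2 fold change was 1.53 with SE 0.59 (adjusted p = 0.036). Without IgG replicate 4 it was 0.58 (adjusted p = 0.367), and it was not called without control replicate 1, 3, 4 or 5 either (1.34 to 1.53) nor under upper-quartile scaling (1.275, adjusted p = 0.07). Of its 100-base stretches 64.5% are shared with Gm43302 or Gbp10, and the summed counts of Gbp6, Gm43302 and Gbp10 gave 0.87 (adjusted p = 0.175).

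Other interferon pathway genes, listed by function, gave 2 higher and 10 lower of 16 tested antiviral genes. Of all tested genes 30.2% were called higher and 28.4% lower. The largest changes were Cmpk2 at -1.90, Epsti1 at -1.71 and Eif2ak2 (the kinase PKR) at -1.42 in log2, and the largest rise was 1.34. Of 7 other tested interferon gamma GTPases 0 were higher and 5 lower, led by F830016B08Rik at -4.16, Tgtp2 at -2.68 and Tgtp1 at -1.49. Macrophage markers moved in the same comparison, with 6 of 8 lower and 1 higher and muscle fibre markers 4 of 6 lower, the macrophage list at a summed 62.5 to 97.4 CPM in IgG against 84.4 to 159 CPM in control. T cell markers summed to 0.063 to 0.241 CPM in IgG and 0.865 to 1.77 CPM in control, with Cd3d at 0 in IgG. The 1 T cell marker tested, Cd3e, was lower at -4.06 in log2. NK cell markers were at or under 0.241 CPM in IgG and 0.162 to 0.535 CPM in control, and plasmacytoid dendritic cell markers 0.063 to 0.434 CPM in IgG and 0.690 to 1.47 CPM in control. Fibroblast markers had 4 of 5 lower (median log2 fold change -2.66). Endothelial markers had 2 of 6 lower, near the 28.4% of all genes. Neutrophil markers went up, with 2 of 2 tested higher (S100a8 and S100a9, median log2 fold change 2.40) and a sum of 2.79 to 8.31 CPM in IgG against 0.236 to 3.62 CPM in control. The part of these cells in the results was not tested.

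**Figure D2:**
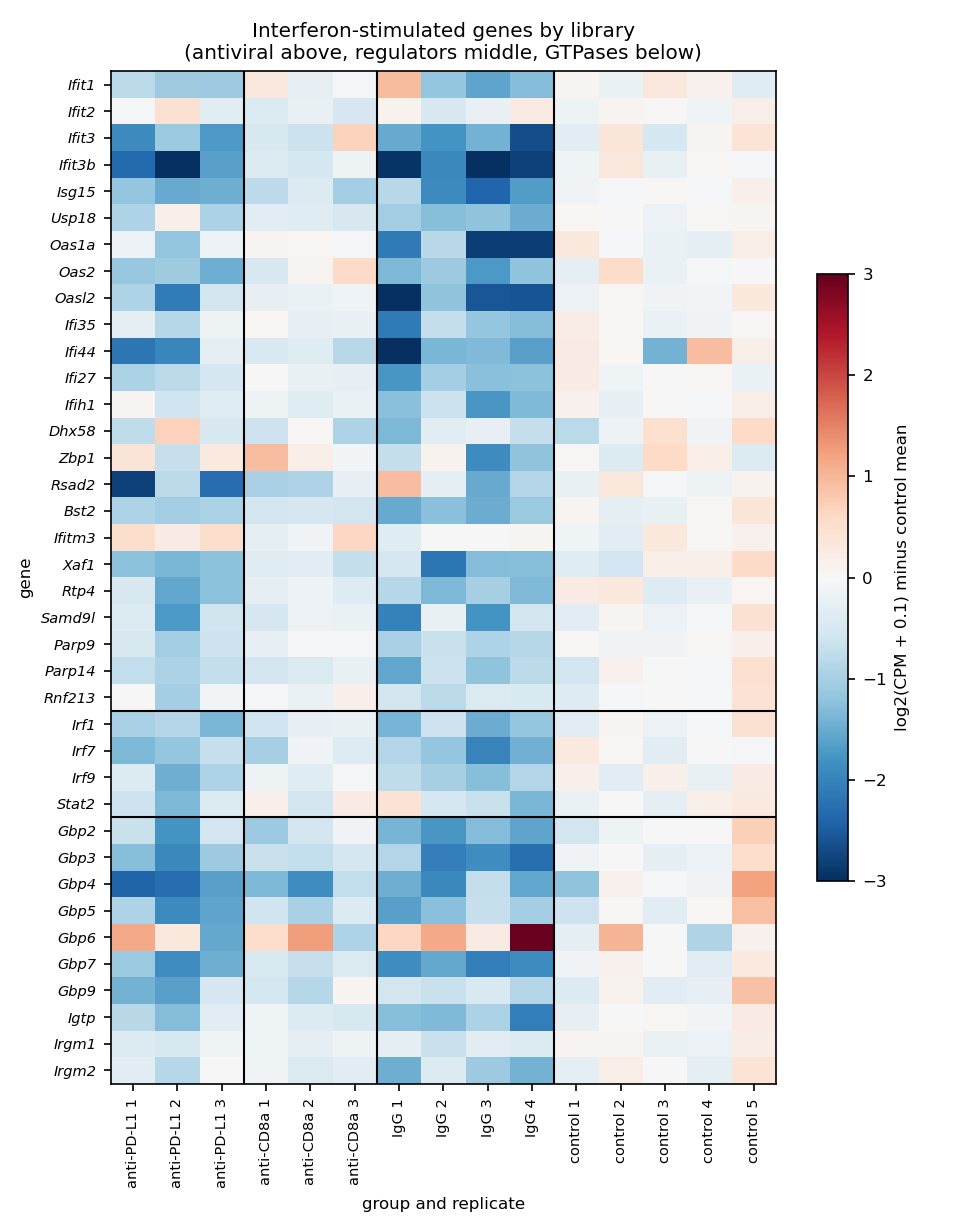
Level of each of the 38 genes in each library, as log2(CPM + 0.1) minus the mean of the 5 control libraries, with colours limited to 3 either way. Most rows are blue in IgG and anti-PD-L1 and pale in anti-CD8a. Gbp6 in IgG replicate 4 is the darkest red cell.

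Anti-PD-L1 against control gave 21 lower and 0 higher calls among the 37 tested genes, against 13.9% of all tested genes called lower and 20.8% called higher. At an unadjusted p under 0.05 edgeR gave 1 higher, and DESeq2 called 0 higher, where it called 19.5% of all tested genes higher. In either direction 28 of the 37 and 6488 of all 14372 tested genes had an unadjusted p under 0.05. Over the 37 genes the median log2 fold change was -0.998, and over all tested genes 0.05. The 21 were 11 of 23 antiviral genes, 3 of 4 transcription factors and 7 of 10 GTPases. Macrophage markers went the other way in the same libraries, with 6 of 8 higher and 0 lower and a sum of 178 to 577 CPM in anti-PD-L1 against 84.4 to 159 CPM in control. Neutrophil markers had 2 of 2 tested higher, with a median log2 fold change of 4.96 and a sum of 10.6 to 48.3 CPM in anti-PD-L1 against 0.236 to 3.62 CPM in control. Fibroblast markers had 1 of 5 higher and 3 lower. T cell markers summed to 0.0477, 2.87 and 0.132 CPM in anti-PD-L1 against 0.865 to 1.77 CPM in control, replicate 2 being the high one. The 1 T cell marker tested, Cd3e, was lower at -2.82 in log2. The part of these cells in the calls was not tested.

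Ifit3b had 0.810, 0.428 and 1.36 CPM in anti-PD-L1 against 3.80 to 5.66 CPM in control, a log2 fold change of -2.36 with SE 0.37 (adjusted p = 0.000282). Ifit3 had 1.10, 1.97 and 1.27 CPM in anti-PD-L1 and 3.48, 5.66, 3.05, 4.65 and 5.93 CPM in control and fell with a log2 fold change of -1.65 with SE 0.38 (adjusted p = 0.00388). Rsad2 had 0.620, 2.74 and 0.923 CPM in anti-PD-L1 against 4.15 to 6.19 CPM in control and fell with a log2 fold change of -1.77 with SE 0.52 (adjusted p = 0.0151). All 3 anti-PD-L1 libraries were below every control library in each of these genes, but the call of Rsad2 was lost without anti-PD-L1 replicate 1 (-1.42, adjusted p = 0.0668) or replicate 3 (-1.54, adjusted p = 0.0561). Isg15, Oas2, Xaf1, Bst2, Ifi27, Parp9, Parp14 and Rtp4 also fell, with log2 fold changes of -1.54 to -0.71, those of Parp14 and Rtp4 not being called without anti-PD-L1 replicate 2 (-0.77 and -0.88).

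Irf1 had 3.72, 3.98 and 2.81 CPM in anti-PD-L1 against 6.00 to 10.3 CPM in control and fell with a log2 fold change of -1.11 with SE 0.23 (adjusted p = 0.00233). Irf7 fell with a log2 fold change of -1.10 with SE 0.29 (adjusted p = 0.00914) and Irf9 at -0.91 with SE 0.23 (adjusted p = 0.00746). Gbp4, of the chromosome 5 cluster, had 1.14, 1.24 and 2.02 CPM in anti-PD-L1 and 2.75, 7.13, 6.27, 6.06 and 15.2 CPM in control, with control replicate 5 far above the others, and fell with a log2 fold change of -2.34 with SE 0.47 (adjusted p = 0.00174). Gbp5, which promotes inflammasome assembly, had 1.38, 0.643 and 0.836 CPM in anti-PD-L1 and 1.74, 2.77, 2.13, 2.76 and 5.13 CPM in control and fell with a log2 fold change of -1.61 with SE 0.37 (adjusted p = 0.00416). Gbp7 had 6.67, 3.94 and 5.19 CPM in anti-PD-L1 against 11.6 to 17.9 CPM in control and fell with a log2 fold change of -1.48 with SE 0.20 (adjusted p = 9.63e-05). Gbp3 fell with a log2 fold change of -1.46. Gbp2, Gbp9 and Igtp fell with a log2 fold change of -0.998, -1.21 and -0.80. Without anti-PD-L1 replicate 2 none of Gbp2, Gbp9 and Igtp was called (-0.69, -0.98 and -0.58), which left 4 GTPases. Gbp2 was also lost without control replicate 5 (-0.77), and Gbp9 and Igtp without anti-PD-L1 replicate 1 (-1.06 and -0.76).

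Ifih1, Ifi35, Irgm2, Irgm1, Oas1a, Oasl2, Usp18, Ifi44, Samd9l and Rnf213 fell in IgG and were not called in anti-PD-L1 against control. Oasl2 gave -1.13 (adjusted p = 0.0557), with every anti-PD-L1 library below every control library, and Ifi44 -1.65 (adjusted p = 0.0592). Oas1a gave -0.554, with a 95% interval of -1.655 to 0.548. Usp18, Samd9l and Rnf213 gave -0.51, -0.84 and -0.33. Ifih1 had 5.15, 3.21 and 3.74 CPM in anti-PD-L1 and 5.38, 4.07, 4.83, 4.71 and 5.53 CPM in control, with overlapping ranges and a log2 fold change of -0.28, with a 95% interval of -0.76 to 0.20. Ifi35 gave -0.41, with a 95% interval of -0.91 to 0.10 and Irgm2 -0.39, with a 95% interval of -0.92 to 0.14. Irgm1 gave -0.34, with a 95% interval of -0.65 to -0.04 (adjusted p = 0.0707), close to its -0.43 in IgG against control. Without anti-PD-L1 replicate 3 its log2 fold change of -0.46 was called (adjusted p = 0.0394). Gbp6, higher in IgG, gave 0.20, with a 95% interval of -1.16 to 1.57 and turned to -0.47 without anti-PD-L1 replicate 1 and to -0.39 as the sum with its 2 copies. Of the 16 other antiviral genes tested 3 were higher and 3 lower, with Slfn2 at 1.87, Trim25 at 0.96 and Cmpk2 at -2.37 in log2. Both counts are near the shares of all tested genes, 20.8% higher and 13.9% lower. Of the 7 other GTPases 0 were higher and 6 lower, led by Tgtp2 at -2.65.

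**Figure D3:**
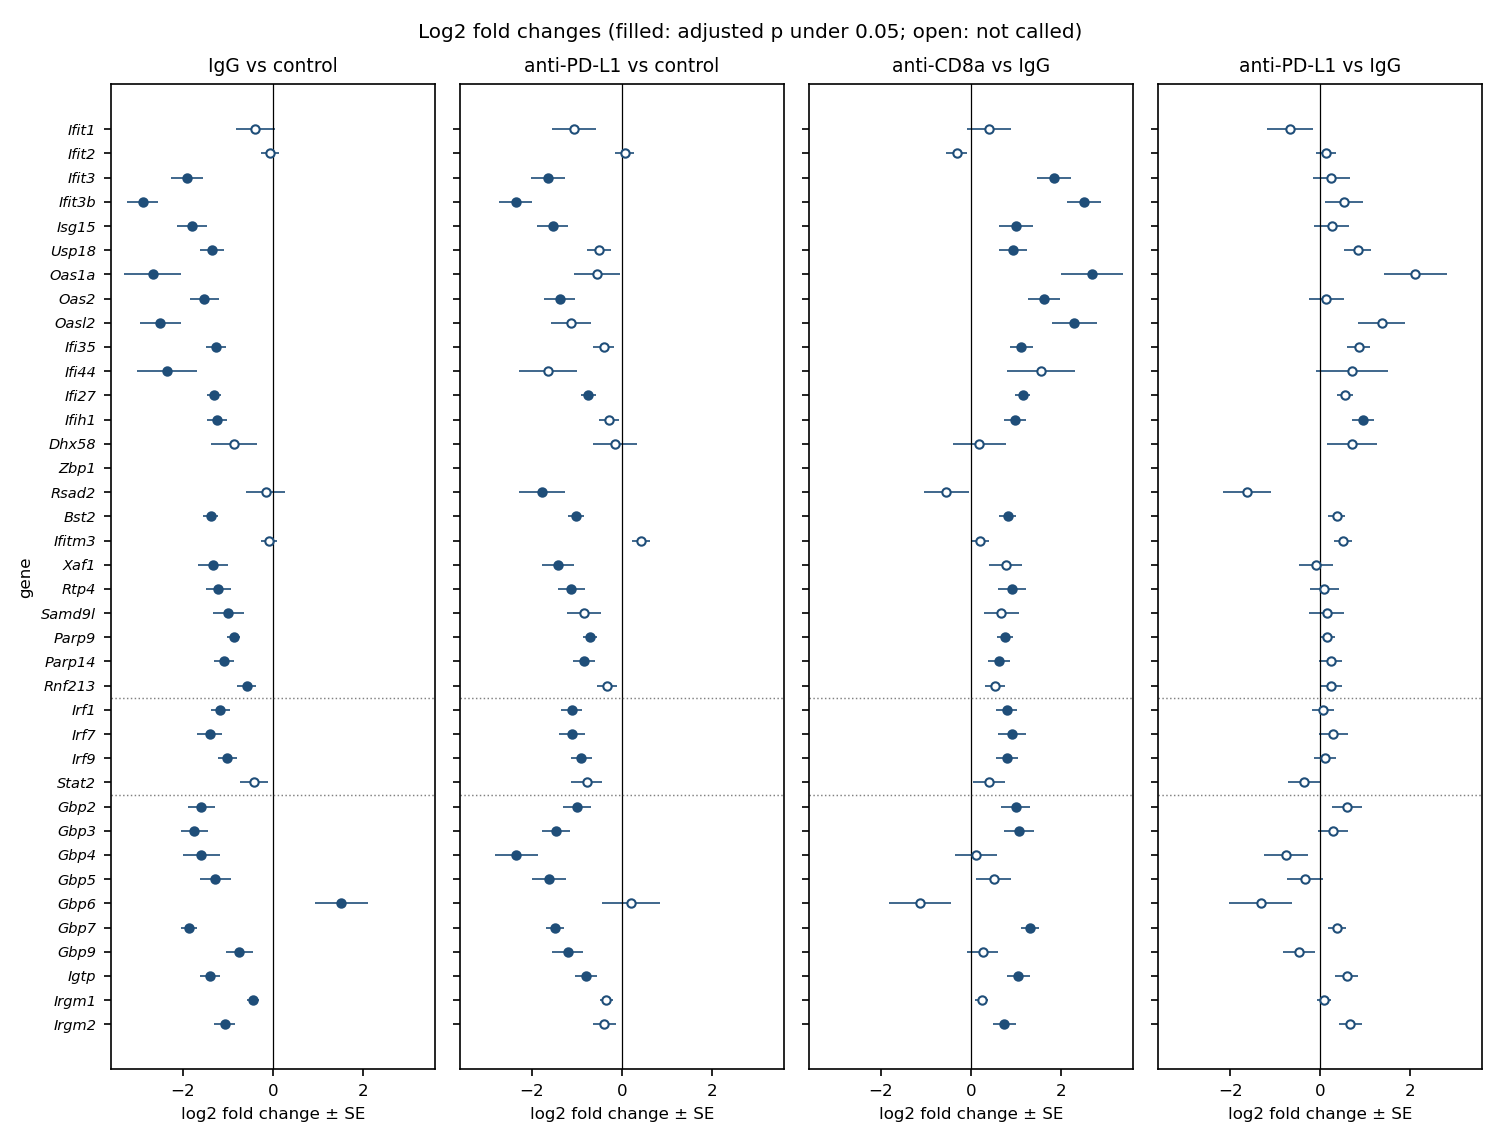
Log2 fold change with its SE of each of the 38 genes in 4 comparisons, filled where the adjusted p was under 0.05. The antiviral genes stand above the 4 transcription factors and the 10 GTPases, and Zbp1 has no value. Of the 37 tested genes 30 are filled and lower in IgG vs control, 21 lower in anti-PD-L1 vs control, 22 higher in anti-CD8a vs IgG and 1 higher in anti-PD-L1 vs IgG.

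Anti-CD8a against control gave 0 higher and 0 lower calls among the 37 genes, where 0.00696% of all tested genes were called in each direction. DESeq2 also called 0 of the 37, where it called 0.237% of all tested genes in each direction. At an unadjusted p under 0.05 edgeR gave 0 higher and 6 lower, where 1109 of all 14372 tested genes were under it. The median log2 fold change was -0.34 over the 37 genes, 32 of them negative, and 0.01 over all tested genes. Bst2 had 4.90, 5.10 and 4.95 CPM in anti-CD8a and 7.74, 5.95, 6.27, 7.46 and 9.45 CPM in control, without overlap, and a log2 fold change of -0.57, with a 95% interval of -0.94 to -0.20 (adjusted p = 0.382). Among the transcription factors Irf7 gave -0.48, with a 95% interval of -1.08 to 0.12. Gbp4 had 2.51, 1.72 and 3.81 CPM in anti-CD8a, of which replicates 1 and 2 lay below every control library, and gave -1.48, with a 95% interval of -2.43 to -0.53 (adjusted p = 0.376). Gbp7 gave -0.54, with a 95% interval of -0.94 to -0.15 and Isg15 -0.79, with a 95% interval of -1.49 to -0.09. These intervals do not show that the groups were alike.

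Anti-CD8a against IgG, both with tumour and injected antibody, gave 22 higher and 0 lower calls, where 23.2% of all tested genes were called higher and 24.8% lower. At an unadjusted p under 0.05 edgeR gave 0 lower, and DESeq2 called 0 lower, where it called 25.5% of all tested genes lower. In either direction 24 of the 37 and 7899 of all 14372 tested genes had an unadjusted p under 0.05. Over the 37 genes the median log2 fold change was 0.80, and over all tested genes 0.02. The 22 were 14 of 23 antiviral genes, 3 of 4 transcription factors and 5 of 10 GTPases. This comparison and that of IgG with control share the IgG libraries.

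Oas1a had 0.654, 0.644 and 0.594 CPM in anti-CD8a and 0.0621, 0.301, 0 and 0 CPM in IgG, or 12 counts in each anti-CD8a library against 0 to 5. Its count ratio was 6.82 (95% counting interval 2.84 to 19.8) and its log2 fold change 2.69 with SE 0.68 (adjusted p = 0.00443). Ifit3b had 3.32, 3.06 and 4.01 CPM in anti-CD8a against 0.252 to 1.08 CPM in IgG and rose by 2.52 with SE 0.38 (adjusted p = 0.000108). Oasl2 had 1.96, 2.04 and 2.18 CPM in anti-CD8a against 0.0621 to 0.963 CPM in IgG and rose by 2.30 with SE 0.50 (adjusted p = 0.00156). In these 3 genes every anti-CD8a library lay above every IgG library. Ifit3, Oas2, Ifi27, Ifi35, Ifih1, Isg15, Usp18, Bst2, Rtp4, Parp9 and Parp14 rose by 0.63 to 1.84 in log2. Isg15 was the least stable of them: at 1.00 its adjusted p was 0.0394, and it was lost without IgG replicate 2, 3 or 4 or anti-CD8a replicate 1 or 2 (0.77 to 1.05), in DESeq2 (adjusted p = 0.0525), and without the low-count filter or with only the 2 groups compared (adjusted p = 0.116 in both). Without the low-count filter Usp18 was lost too (0.93, adjusted p = 0.0651), as were Rtp4 (adjusted p = 0.0675) and Parp14 (adjusted p = 0.0669). Rtp4 was lost without IgG replicate 4 or anti-CD8a replicate 1 or 2 (0.84 to 0.92), and Parp14 without IgG replicate 1 or 3 or any anti-CD8a library (0.50 to 0.72), and with only the 2 groups compared (adjusted p = 0.0698).

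Irf7 rose by 0.92 with SE 0.31 (adjusted p = 0.0228), which was not called when IgG replicate 3 or 4 or anti-CD8a replicate 2 or 3 was left out (0.71 to 0.91) or with only the 2 groups compared (adjusted p = 0.0684). Irf9 had 5.50, 4.67 and 5.84 CPM in anti-CD8a and 3.54, 3.01, 2.46 and 3.24 CPM in IgG and rose by 0.80 with SE 0.24 (adjusted p = 0.0119). Irf1 had 4.90, 6.28 and 6.39 CPM in anti-CD8a against 2.58 to 4.82 CPM in IgG and rose by 0.79 with SE 0.24 (adjusted p = 0.013). Gbp7 had 10.6, 8.96 and 10.7 CPM in anti-CD8a against 3.47 to 4.94 CPM in IgG and rose by 1.32 with SE 0.20 (adjusted p = 0.000104). Gbp3 had 3.32, 3.17 and 3.71 CPM in anti-CD8a and rose by 1.07 with SE 0.32 (adjusted p = 0.013). Igtp had 7.35, 6.01 and 5.74 CPM in anti-CD8a and 3.23, 3.13, 4.10 and 1.83 CPM in IgG and rose by 1.05 with SE 0.25 (adjusted p = 0.00325). Gbp2 rose by 0.99, lost without anti-CD8a replicate 3 (0.73), and Irgm2 by 0.74, lost without IgG replicate 1, 3 or 4 or anti-CD8a replicate 1 (0.63 to 0.72).

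By location, in this comparison 3 of the 4 Gbp genes of chromosome 3 (Gbp2, Gbp3, Gbp5 and Gbp7) and 2 of the 3 GTPases of chromosome 11 (Igtp, Irgm1 and Irgm2) rose, with median log2 fold changes of 1.03 and 0.74. Of the 3 on chromosome 5 (Gbp4, Gbp6 and Gbp9) 0 were called, with a median of 0.11. Gbp4 had 2.51, 1.72 and 3.81 CPM in anti-CD8a and 2.30, 1.62, 3.91 and 2.14 CPM in IgG and overlapped (0.11, with a 95% interval of -0.88 to 1.10). It turned to -0.05 without IgG replicate 2 and to -0.22 without anti-CD8a replicate 3. Gbp6 gave -1.14, with a 95% interval of -2.60 to 0.33. The difference between the clusters was not tested. Macrophage markers in the same comparison had 5 of 8 higher and 1 lower, at a summed 62 to 221 CPM in anti-CD8a and 62.5 to 97.4 CPM in IgG. Of all tested genes 23.2% were called higher and 24.8% lower. Fibroblast markers had 3 of 5 higher (median log2 fold change 2.25). T cell markers summed to 0.446 to 0.545 CPM in anti-CD8a and 0.063 to 0.241 CPM in IgG, every anti-CD8a library being the higher, and the 1 tested, Cd3e, was higher at 2.83 in log2. Of that list Cd3d, Cd3g and Cd8b1 were at 0 in anti-CD8a, and Cd3d in IgG. The 1 tested plasmacytoid dendritic cell marker, Siglech, was higher at 2.17 in log2. The part of these cells in the 22 calls was not tested.

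**Figure D4:**
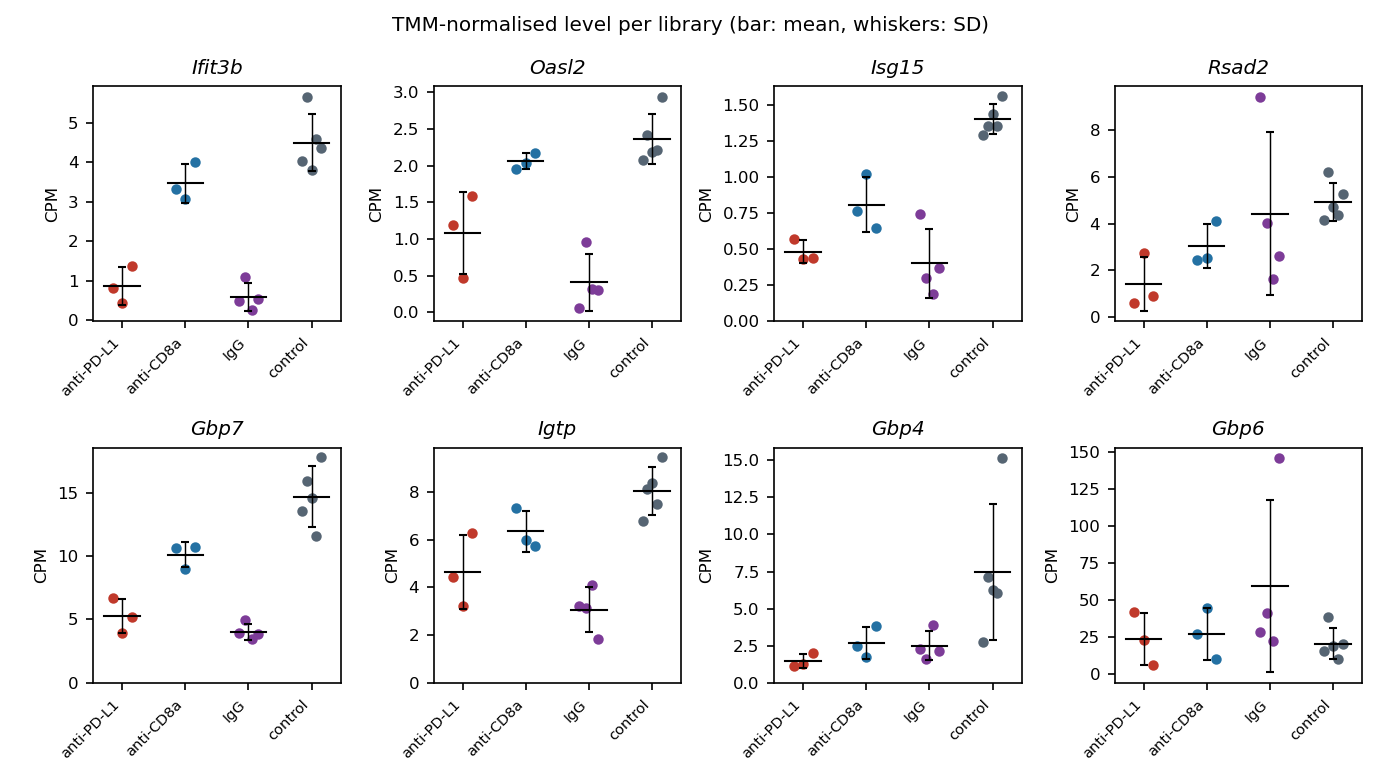
CPM per library of 4 antiviral genes (upper row) and 4 GTPases (lower row) in the 4 groups, with the group mean as a bar and the SD as whiskers. Ifit3b, Oasl2, Gbp7 and Igtp are low in IgG and closer to control in anti-CD8a, and the highest Gbp6 point, 146 CPM, is IgG replicate 4.

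Anti-PD-L1 against IgG gave 1 higher call, Ifih1, and 0 lower, where 3.96% of all tested genes were called higher and 1.54% lower. The median log2 fold change was 0.25 over the 37 genes and 0.01 over all tested genes. At an unadjusted p under 0.05 there were 9 higher and 1 lower. Those 10 of 37 genes were near the share of all tested genes, 3862 of 14372. DESeq2 called 5 higher and 1 lower, where it called 6.05% of all tested genes higher and 6.52% lower. Ifih1 had 5.15, 3.21 and 3.74 CPM in anti-PD-L1 and 1.99, 3.07, 1.39 and 1.89 CPM in IgG, without overlap, and a log2 fold change of 0.95 with SE 0.24 (adjusted p = 0.0379). Leaving out any of IgG replicates 1, 3 and 4 or of anti-PD-L1 replicates 1 and 3 ended the call (0.735 to 0.999), as did comparing only the 2 groups (adjusted p = 0.255). Of the transcription factors Stat2 gave -0.36, with a 95% interval of -1.13 to 0.41, which turned to 0.09 without IgG replicate 1. Irgm2, the GTPase of smallest p, had 9.68, 6.73 and 12.4 CPM in anti-PD-L1 and 4.41, 9.27, 5.73 and 4.58 CPM in IgG, with overlap, and gave 0.68, with a 95% interval of 0.12 to 1.23 (adjusted p = 0.119).

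The count in anti-PD-L1 against IgG depended on the libraries that stood apart. Without IgG replicate 2 there were 6 higher calls, without anti-PD-L1 replicate 2 there were 7 higher and 1 lower, and without both 9 higher and 1 lower. Calls rose over all tested genes as well. Of these 3.96% were called higher with all libraries, 10.1% without IgG replicate 2, 9.91% without anti-PD-L1 replicate 2 and 15.5% without both. The shares called lower were 1.54%, 8.02%, 8.96% and 13.8% in the same order. Each of these libraries was left out because it lay towards the other group, which tends to widen the difference between the groups. The smaller adjusted p-values that follow are therefore not support for a difference. Without either, Oasl2 gave 2.58 (adjusted p = 0.000868), against 1.37 with all libraries (adjusted p = 0.109). Oas1a gave 4.28 (adjusted p = 0.00116), against 2.11 (adjusted p = 0.0777). Ifi35 gave 1.28 (adjusted p = 0.00171), against 0.86 (adjusted p = 0.0555), and Irgm2 1.17 (adjusted p = 0.00236). Ifi27 gave 0.70 (adjusted p = 0.0178), against 0.56 (adjusted p = 0.0654). Rsad2 was the lower one, at -2.55 (adjusted p = 0.00805), against -1.62 with all libraries (adjusted p = 0.0753). Rsad2 had 0.620, 2.74 and 0.923 CPM in anti-PD-L1, replicate 2 being the highest, and 9.43, 4.03, 1.64 and 2.63 CPM in IgG.

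Some genes outside the 38 were called in anti-PD-L1 against IgG, where 3.96% of all tested genes were called higher and 1.54% lower. Of 16 other antiviral genes tested 6 were higher and 0 lower, led by Ifi27l2a at 2.15, Epsti1 at 1.92 and Ifi204 at 1.74 in log2. These 3 calls were lost when any of IgG replicates 1, 3 and 4 or anti-PD-L1 replicate 3 was left out (1.52 to 2.27), and with only the 2 groups compared (adjusted p = 0.153 to 0.23). Epsti1 and Ifi204 were also lost without anti-PD-L1 replicate 1 (1.60 and 1.31), and Ifi27l2a without anti-PD-L1 replicate 2 (1.52). Irf5, a factor of myeloid cells, was higher at 1.68, a call lost with only the 2 groups compared (1.699, adjusted p = 0.0735). Ciita, the activator of MHC class II genes, was higher at 2.10, the call of Ciita being lost without any of IgG replicates 1, 3 and 4 or anti-PD-L1 replicates 1 and 3 (1.88 to 2.26). Its mean in IgG, 0.138 CPM, lies within what a library with no read allows. Macrophage markers had 6 of 8 higher, at a summed 178 to 577 CPM in anti-PD-L1 against 62.5 to 97.4 CPM in IgG, and neutrophil markers summed to 10.6 to 48.3 CPM in anti-PD-L1 against 2.79 to 8.31 CPM in IgG. Fibroblast markers had 3 of 5 higher, and Siglech was higher at 2.88 in log2. Their part in these values was not tested.

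Anti-PD-L1 against anti-CD8a gave 6 lower calls and 0 higher, where 7.64% of all tested genes were called lower and 12.1% higher. At an unadjusted p under 0.05 edgeR gave 0 higher and 12 lower. In either direction 4973 of all 14372 tested genes were under it, a share near that of the 12 of 37. DESeq2 called 0 higher, where it called 12.1% of all tested genes higher. Medians of the log2 fold change were -0.62 over the 37 genes and 0.05 over all tested genes. Ifit3b had 0.810, 0.428 and 1.36 CPM in anti-PD-L1 and 3.32, 3.06 and 4.01 CPM in anti-CD8a and was lower at -1.99 with SE 0.39 (adjusted p = 0.00377). Ifit3 was lower at -1.59 with SE 0.41 (adjusted p = 0.0139) and Oas2 at -1.48 with SE 0.36 (adjusted p = 0.012). Gbp7 had 6.67, 3.94 and 5.19 CPM in anti-PD-L1 and 10.6, 8.96 and 10.7 CPM in anti-CD8a and was lower at -0.94 with SE 0.21 (adjusted p = 0.00745). Ifi27 and Parp9 were lower at -0.59 and -0.60. Irf1 had 3.72, 3.98 and 2.81 CPM in anti-PD-L1 and 4.90, 6.28 and 6.39 CPM in anti-CD8a, without overlap, and was not called at -0.74 with SE 0.26 (adjusted p = 0.0522), though it was in DESeq2 (-0.79, adjusted p = 0.0196). Without anti-CD8a replicate 3 there were 3 lower calls and 1 higher, with Ifit3 (-1.03) and Oas2 (-1.17) among those lost. Ifi27 was lost without anti-PD-L1 replicate 1 or 2 or anti-CD8a replicate 1 or 2 (-0.62 to -0.49), and Parp9 without anti-PD-L1 replicate 2 or any anti-CD8a library (-0.67 to -0.44). Both were also lost without the low-count filter (adjusted p = 0.0844 and 0.134) and with only the 2 groups compared (adjusted p = 0.0507 and 0.0903). Macrophage markers had 6 of 8 and neutrophil markers 2 of 2 higher in anti-PD-L1 than in anti-CD8a, and fibroblast markers 2 of 5 higher and 2 lower.

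The antiviral genes and the GTPases were then set beside each other. The median log2 fold change of the GTPases minus that of the antiviral genes was -0.07 in IgG against control (medians -1.33 and -1.26), -0.26 in anti-PD-L1 against control (-1.10 and -0.84) and -0.21 in anti-CD8a against control (-0.51 and -0.30). It was -0.07 in anti-PD-L1 against IgG, -0.29 in anti-CD8a against IgG and -0.01 in anti-PD-L1 against anti-CD8a. For scale, the difference of the class means had a SD of 0.22 over the libraries within groups. That SD is a spread of single libraries and of means, and not the error of the differences of medians above. The difference in anti-PD-L1 against control was 0.02 without control replicate 5 and 0.03 without anti-PD-L1 replicate 2. That in IgG against control was 0.17 without control replicate 5, and that in anti-CD8a against IgG -0.53 without IgG replicate 1.

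As means over each class of log2 CPM relative to control, the antiviral genes averaged -0.89 ± 0.11 in anti-PD-L1 (SD, n = 3), -0.28 ± 0.06 in anti-CD8a (SD, n = 3) and -1.25 ± 0.18 in IgG (SD, n = 4). The GTPases averaged -1.03 ± 0.30 in anti-PD-L1, -0.47 ± 0.07 in anti-CD8a and -0.999 ± 0.05 in IgG. In IgG the mean of the GTPases was thus 0.25 above that of the antiviral genes while their median log2 fold change was 0.07 below, so mean and median differ in sign. Gbp6 enters the mean with its high values. Control libraries spread more in the GTPases, at -0.37 to 0.56, than in the antiviral genes, at -0.11 to 0.19, and control replicate 5 was the highest in both.

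**Figure D5:**
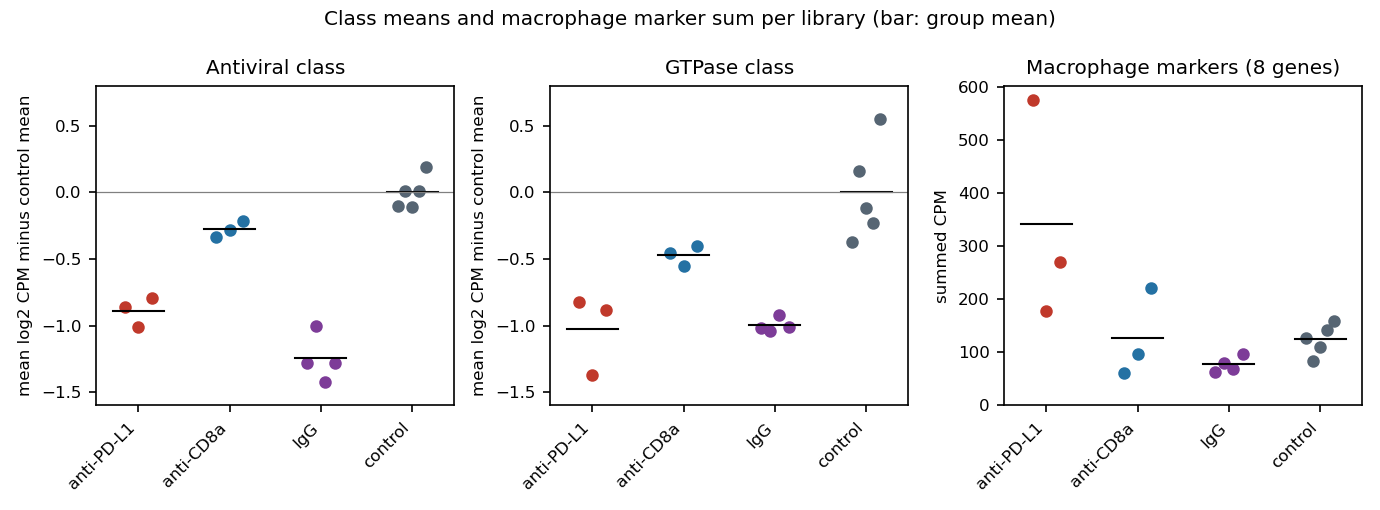
Mean log2 CPM of the tested antiviral genes (left) and the GTPases (middle) per library relative to control, and the summed CPM of 8 macrophage markers (right), with bars at group means. All IgG and anti-PD-L1 points lie below all anti-CD8a points in both classes, while the macrophage sum is 178 to 577 CPM in anti-PD-L1 and at most 221 CPM elsewhere.

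Levels between genes were compared as TPM, per transcript length. Ifitm3 was the most abundant of the 38 genes in every group, at 119 ± 13.2 TPM in anti-PD-L1, 77.8 ± 29.6 TPM in anti-CD8a, 76.9 ± 16.5 TPM in IgG and 69.3 ± 15.5 TPM in control (SD). Ifi27 followed at 23.3 ± 2.61 TPM in anti-PD-L1, 29.0 ± 6.02 TPM in anti-CD8a, 15.2 ± 3.45 TPM in IgG and 33.0 ± 2.45 TPM in control, except in IgG, where Gbp6 had 20.6 ± 21.8 TPM, an SD as large as its mean. Of the GTPases Gbp6, Irgm1, Igtp, Irgm2 and Gbp2 averaged above 1 TPM in each group, and Gbp6 had 8.59 ± 6.27 TPM in anti-PD-L1, 6.67 ± 4.30 TPM in anti-CD8a and 5.2 ± 2.83 TPM in control. At the low end Oas1a had 0.293 ± 0.124 TPM in anti-PD-L1, 0.347 ± 0.0208 TPM in anti-CD8a, 0.0575 ± 0.0903 TPM in IgG and 0.334 ± 0.0754 TPM in control. Dhx58 and Zbp1 stayed under 0.5 TPM in every group mean.

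Some values carry limits from shared or overlapping sequence, measured on GENCODE M21. Gbp7 shares 10.0% of its 100-base stretches with Gm43802 or Gbp3, Rtp4 9.28% with other genes, Igtp 5.16% with Irgm2 and Irgm2 3.01% with Igtp. On the opposite strand other genes overlap 16.8% of the exon bases of Ifi35, 9.40% of Parp9 and 8.74% of Rnf213. The kit keeps strand, but the sources do not say whether counting used it.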

How the data were processed

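Total RNA of 15 muscle libraries was sequenced. The kit was MGIEasy RNA Directional, per the labels. The submitters' processing notes name Trim Galore, STAR 2.7.9a and RSEM 1.3.3. The genome build, annotation and strand setting are not given in the sources used here. The authors deposited, per library, RSEM expected counts (19.8% to 22.8% of values not whole within 0.005), used for tests after rounding, and TPM, used only for levels between genes. Gene IDs were paired with symbols through a name table (52083 of 55416).

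All 4 groups entered 1 fit in edgeR 4.0.16 (R 4.3.3): TMM, filterByExpr with the groups, quasi-likelihood F test (two-sided, 11 residual degrees of freedom), Benjamini-Hochberg adjustment over 14372 genes within each of 6 comparisons, called at an adjusted p under 0.05. SEs were derived from the fold change and F. Log2 CPM used a prior count of 2. The fit was also run on simulated data in which all genes had the same spread. That run does not cover the spread between these libraries or changes in genes of low count. Counting intervals are exact and at 95%.

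Named are, per comparison and class, up to 3 called genes of largest change in each direction, or the gene of smallest p where none was called. Others were named after their values were seen, and 1 item is not reported here. The members and lists were chosen with earlier results of these data known. Alternatives were DESeq2 1.42.0, upper-quartile scaling, no low-count filter, only the 2 groups compared, a replicate block and leaving out each library. Chosen after seeing the data were merged gene copies and leaving out IgG replicate 2 and anti-PD-L1 replicate 2 together.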

Additional observations from a re-analysis of the deposited data

Results flagged for a closer look

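Ifit1 in IgG replicate 1 stood apart from the other libraries of its group, at 4.47 CPM against 0.693 to 0.963 CPM. The gap to its nearest neighbour was 0.833 of the group's whole range on the log2 CPM scale. It was the only one of 74 groups of libraries examined (37 genes in IgG and in control) to stand so far out, and chance alone would mark about 1 in 20.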

How the results depend on the processing

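The counts of genes called lower in IgG against control (26 to 30), lower in anti-PD-L1 against control (17 to 25) and higher in anti-CD8a against IgG (17 to 25) stayed within 1.5 times their values of 30, 21 and 22 under every alternative run. Of the calls, 26 of 31, 15 of 21 and 15 of 22 held under all alternatives, against 0 of 1 in anti-PD-L1 against IgG and 2 of 6 (Ifit3b and Gbp7) in anti-PD-L1 against anti-CD8a. The 1 higher call in IgG against control became 0 under upper-quartile scaling, under the replicate block and with merged copies, and was 0 to 1 when single libraries were left out.

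Anti-PD-L1 against IgG was the least stable. Its 1 higher call became 5 in DESeq2, 3 under upper-quartile scaling, 2 without the low-count filter, 0 with only the 2 groups compared, 0 under the replicate block, 0 to 7 without single libraries and 9 without both replicates 2. The share of all genes called higher moved too, from 3.96% to 0.967% to 10.1% without single libraries and 15.5% without both replicates 2. Its 0 lower calls became 1 in DESeq2, 1 without the filter, 0 to 1 without single libraries and 1 without both replicates 2. In anti-PD-L1 against anti-CD8a, leaving out single libraries gave 0 to 1 higher and 3 to 7 lower calls. The GTPase minus antiviral difference ranged, without single libraries, over -0.222 to 0.172 in IgG against control, -0.382 to 0.033 in anti-PD-L1 against control, -0.309 to -0.009 in anti-PD-L1 against IgG and -0.531 to -0.069 in anti-CD8a against IgG, and was 0.034 in anti-PD-L1 against control without both replicates 2.

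The sign of some uncalled log2 fold changes turned. Ifit2 in IgG against control was 0.053 without IgG replicate 2 and 0.056 without both replicates 2 (-0.185 to 0.053 without single libraries). Rsad2 there was 0.120 without IgG replicate 3 and 0.031 without IgG replicate 4 (-0.848 to 0.120). Gbp6 in anti-PD-L1 against control was -0.467 without anti-PD-L1 replicate 1 and -0.389 with merged copies (-0.467 to 0.656). Stat2 in anti-PD-L1 against IgG was 0.093 without IgG replicate 1 (-0.591 to 0.093). Gbp4 in anti-CD8a against IgG was -0.050 without IgG replicate 2, -0.219 without anti-CD8a replicate 3 and -0.051 without both replicates 2 (-0.219 to 0.409). The causes were not tested.

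Upper-quartile scaling moved the median log2 fold change of all genes to -0.271 in IgG against control (from -0.024), 0.250 in anti-CD8a against IgG (from 0.023) and 0.120 in anti-PD-L1 against IgG (from 0.011), and the higher share of all calls to 37.0%, 64.5% and 85.2%, against 51.5%, 48.3% and 71.9%. In anti-PD-L1 against control and against anti-CD8a that share was 44.5% and 45.1% under it, against 59.9% and 61.3%. In anti-PD-L1 against IgG, DESeq2 called 6.05% of all genes higher and 6.52% lower, and the 2 groups alone 0.257% and 0%. Replicate numbers did not pair the libraries (2 of 19 pairings correlated best with their own number, r -0.345 to 0.18), and the replicate block gave 26 lower calls in IgG against control, 19 in anti-PD-L1 against control, 17 higher in anti-CD8a against IgG (without Isg15, Usp18, Rtp4, Irf7 and Irgm2) and 5 lower in anti-PD-L1 against anti-CD8a. Low counts limit Oas1a, Ifi44, Dhx58 and Zbp1.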
